A study of Mus musculus with 4 samples.

Results

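The 10 genes described here make up a tuft cell and eicosanoid group: the tuft cell genes Dclk1, Trpm5, Gfi1b and Pou2f3, the prostaglandin genes Ptgs1, Ptgs2 and Hpgds, and the leukotriene genes Alox5, Alox5ap and Ltc4s. They were taken by gene name from the 28307 gene names on a mouse 2-colour array. All 10 were present, with 19 of the 41174 probes. Tuft cells are rare chemosensory cells of the gut epithelium that taste the lumen through a G protein and calcium cascade ending in the cation channel Trpm5, and they are a known source of prostaglandins and cysteinyl leukotrienes. Both lipid families start from arachidonic acid, which cyclooxygenases (Ptgs1, Ptgs2) turn toward prostaglandins and 5-lipoxygenase (Alox5, with its partner Alox5ap) toward leukotrienes. Mast cells, macrophages and platelets use several of the same enzymes.

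The cells came from crypts of normal colon of adult mice with an Lgr5 knock-in allele, Lgr5_EGFP-ires-CreERT2, in which the Lgr5 promoter drives GFP. RNA of sorted GFP-positive cells was hybridised together with RNA of cells sorted for high CD24 with a PE-conjugated antibody, a gate that the design describes as taking some of the goblet cells. A first array (Lgr5-GFP RNA in Cy3) and a dye swap made up each of 2 replicates (n = 2). Nothing in the labels ties the replicates to separate animals. The p-values therefore cover the spread between these samples alone, which may be technical. Each replicate lay on a slide of its own.

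Median signals on 3 arrays ran from 94.2 to 164 for the Lgr5-GFP-labelled RNA and from 110 to 197 for the CD24hi-labelled RNA. On the dye swap of replicate 1 they were 4380 and 1360, and the scanner software marked 75.3% of its spots as outliers, which were left out. Both genes used for sorting had ratios opposite to the labels. Lgr5 was 10.6-fold lower in the Lgr5-GFP-labelled RNA (log2 ratio -3.41 ± 0.29, SD, n = 2), and Cd24a was 4.35-fold higher there (2.12 ± 0.30). The populations are therefore named by their labels throughout. Directions below follow the labels and would turn round if the labels were exchanged. In the Lgr5-GFP-labelled RNA, 5 of 9 tested enteroendocrine markers and 6 of 9 goblet markers were also called higher. So were 5 of 7 absorptive colonocyte markers, and 6 of 6 tested stem cell markers were called lower. Among all 14802 genes tested, 21.7% were called higher and 25.5% lower.

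Some of the 60-base probes join exons, since their span in the genome is longer than the probe, so they place the measurement in a spliced transcript. The 4 that do so are shown because results below turn on them. They are the Dclk1 probe with the largest ratio, a Dclk1 probe further along the gene that was not well above background, the probe of the only gene called lower, and the probe of a gene that could not be tested.
Dclk1, exon-joining probe at chr3:55184765-55254910: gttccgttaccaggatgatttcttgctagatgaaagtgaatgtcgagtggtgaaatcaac
Dclk1, exon-joining probe at chr3:55320895-55337537: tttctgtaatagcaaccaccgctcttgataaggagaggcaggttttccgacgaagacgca
Hpgds, exon-joining probe at chr6:65070081-65073609: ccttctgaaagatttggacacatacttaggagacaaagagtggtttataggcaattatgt
Pou2f3, exon-joining probe at chr9:42954951-42984381: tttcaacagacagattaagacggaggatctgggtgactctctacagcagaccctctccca
Positions are those of the file annotation, build mm9. The Dclk1 probes lie on the plus strand, the Hpgds and Pou2f3 probes on the minus strand, and all are written in the sense of the transcript. Each held at least 1 reading frame without a stop, which was a condition for printing it. Their spans in the genome were 70.1, 16.6, 3.53 and 29.4 kb, and the GC contents of the first 3 were 41.7%, 48.3% and 36.7%.

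Most of the genes that could be tested were higher in the Lgr5-GFP-labelled RNA. Dclk1, Alox5, Trpm5, Ptgs1, Ltc4s, Alox5ap and Gfi1b were called higher, with measured ratios between 1.45-fold and 4.84-fold. The ratio of Ptgs1 rests on a CD24hi-labelled signal that was not well above background on any array with a value. Hpgds was called lower, by 1.91-fold. Ptgs2 and Pou2f3 had no probe that was well above background on all 4 arrays in either population and were not tested. The calls were 7 of 8 tested genes higher (87.5%) and 1 lower, with 0 not called, against 21.7% higher and 25.5% lower, or 47.2% in either direction, among all 14802 genes tested (limma, Benjamini-Hochberg over all of them, adjusted p under 0.05). The median log2 ratio of the 8 was 1.65, and that of all tested genes was -0.07. In both replicates, 6 of the 8 were at least 2-fold higher, as were 5.9% of all tested genes, and 0 were at least 2-fold lower, as were 6.05%. A gene that is well above background in only 1 population enters the test through that population, so the count does not stand for all 10. With well above background required in both populations, 6 were tested and all 6 were called higher, with a median of 1.30. Dclk1 (1.18) and Alox5 (1.87) were then read through other probes, and Ptgs1 and Hpgds dropped out.

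These calls rest on the background correction. The scanner software marked the local background of 77 spots on replicate 2's first array as non-uniform, and these spots were left out before background was fitted. With them kept in the fit, limma called 0 of 14802 genes and none of the 8, with a smallest adjusted p of 0.0548 and 5586 genes under 0.05 before adjustment. The ratios of the 8 then kept their directions, and all 8 had an unadjusted p under 0.05. No tested gene of the group had a usable spot on the dye swap of replicate 1, so replicate 1 rests for them on its first array, with no dye balance. With the marked spots kept, the ratio of Dclk1 on that swap was 0.09, that of Trpm5 0.08 and that of Hpgds -0.06.

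**Figure D1:**
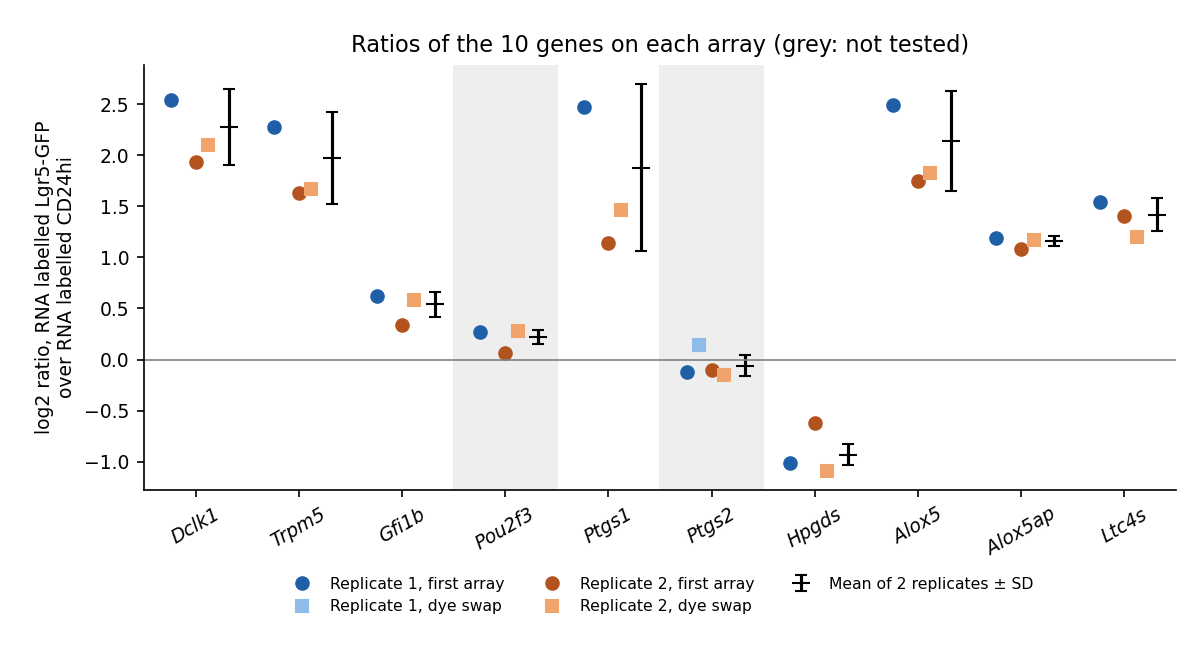
Log2 ratios (y axis, Lgr5-GFP-labelled over CD24hi-labelled RNA) of the 10 genes (x axis) on each array, with the mean of the 2 replicates and its SD as a black bar. The points of 7 tested genes lie above 0 on every array with a value and those of Hpgds below 0, and Pou2f3 and Ptgs2, on grey, were not tested and lie near 0.

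Dclk1 encodes a microtubule-associated kinase that is the most used marker of mouse tuft cells. The signal of its brightest probe in the Lgr5-GFP-labelled RNA was 415 over a local background of 52 on the first array of replicate 1, 222 over 49.5 on the first array of replicate 2 and 350 over 130 on the dye swap of replicate 2. In the CD24hi-labelled RNA it was 191 over 136, 161 over 133 and 89.5 over 49. The first population stood clear of its background on all 3 arrays, and the second was well above background on 1 of them. The log2 ratios on those arrays were 2.54, 1.93 and 2.10, giving a mean over replicates of 2.28 ± 0.37 (SD, n = 2; limma, adjusted p = 0.000784). All 3 arrays lay above 0.

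Dclk1 had 7 probes, and they did not give 1 ratio. The 4 that were kept were all higher in the Lgr5-GFP-labelled RNA, at 2.28 for the exon-joining probe that lies first along the gene and at 0.75, 0.75 and 1.18 for the probes at chr3:55340263-55340322, chr3:55340456-55340515 and chr3:55342815-55342874. The other 3, at chr3:55271688-55271747, chr3:55280392-55280451 and the exon-joining probe at chr3:55320895-55337537, were not well above background in either population on any array with a value, and read 0.15, 0.03 and 0.30. The mean over the kept probes was 1.24 (limma, adjusted p = 0.00275). The probe at chr3:55340456-55340515 was not well above background in the CD24hi-labelled RNA on any array with a value. Its ratio (1.68-fold) therefore has no firm level on that side. The kept probes shared their direction, and the difference in size between them was not tested. The bases of both exon-joining probes are printed above.

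**Figure D2:**
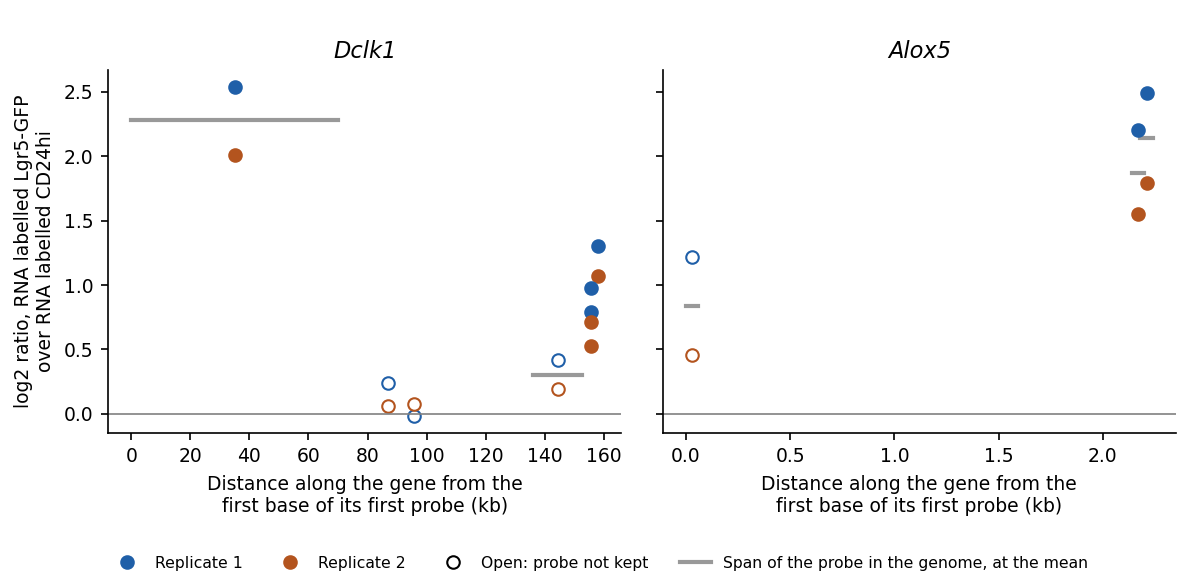
Log2 ratio of each replicate (y axis) for every probe of Dclk1 and Alox5 by its distance along the gene (x axis, kb), with filled points for kept probes, open points for probes that were not kept, and a grey bar for the span in the genome at the mean. The kept Dclk1 probes range from 0.75 to 2.28, and the 2 kept Alox5 probes read 2.14 and 1.87. Of the 2 Dclk1 probes at 0.75, 1 was not well above background in the CD24hi-labelled RNA on any array with a value.

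Trpm5 is the calcium-gated cation channel at the end of the taste transduction cascade. Its single probe, at chr7:150257715-150257774 on the minus strand, gave signals of 517, 215 and 368 in the Lgr5-GFP-labelled RNA, over backgrounds of 53, 49 and 130, on the arrays in the same order. The CD24hi-labelled RNA gave 242, 173 and 121, over 134, 130 and 51. Both populations were well above background on all 3 arrays, so this ratio has a measured level on each side. It was 2.28, 1.63 and 1.67 on those arrays, with a mean of 1.97 ± 0.45 (limma, adjusted p = 0.0012), or 3.91-fold, and replicate 1 gave the larger value.

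Gfi1b is a zinc finger repressor known in megakaryocytes, erythroid cells and tuft cells. Its probe, at chr2:28464982-28465041 on the minus strand, was well above background in both populations on 3 of 3 arrays. The ratios were 0.62, 0.34 and 0.58, with a mean of 0.54 ± 0.12 (limma, adjusted p = 0.018). This was the smallest ratio among the genes called. The direction was the same on each array, but the call was lost with no background subtraction (0.26; limma, adjusted p = 0.0817), with marked spots kept (0.43; 0.0852), with median centring (0.41; 0.05) and with the non-uniform backgrounds in the fit (0.46; 0.114).

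Pou2f3, the POU domain factor that tuft cells need to form, could not be tested. Its signals in the Lgr5-GFP-labelled RNA were 103, 96 and 170 over backgrounds of 53, 51 and 134, and in the CD24hi-labelled RNA 160, 161 and 90.3 over 131, 123 and 48.5. It was well above background on 1 of 3 arrays in the first and on 0 of 3 in the second. The ratios of 0.27, 0.06 and 0.28 had a mean of 0.22 ± 0.07. At this signal a difference was not detectable. The scanner software's own processed signals, which carry no added offset, gave 1.70 for the same spots, a value taken near background.

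Ptgs1 and Ptgs2 encode the 2 cyclooxygenases, the first usually present without stimulus and the second usually induced. Ptgs1 (chr2:36105892-36105951, plus strand) read 304, 141 and 265 in the Lgr5-GFP-labelled RNA, over backgrounds of 50.5, 51 and 124. In the CD24hi-labelled RNA it read 159, 146 and 93.2, over 132, 123 and 46.5, and it was not well above background there on any array with a value. Its log2 ratios were 2.47, 1.14 and 1.46, all above 0, and their mean was 1.88 ± 0.82 (limma, adjusted p = 0.00416). The measured ratio was 3.69-fold, over a CD24hi-labelled signal that was not well above background. It is not a firm lower bound. Replicate 2 alone gave a log2 ratio of 1.30, and no background subtraction gave 1.07 over both replicates. The ratio is also open to dye bias in replicate 1. The SD of Ptgs1 was the largest among the 8 tested genes.

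Ptgs2 was printed as 10 spots of a single probe (chr1:151954744-151954803) and as a second probe (chr1:151954416-151954475), both on the plus strand. On the first array of replicate 1, the 10 spots gave a mean signal of 83.1 over 51.6 in the Lgr5-GFP-labelled RNA and of 160 over 135 in the CD24hi-labelled RNA. Neither probe was well above background on any array other than the dye swap of replicate 1. The mean log2 ratios of the repeated probe were -0.12 and 0.14 on replicate 1's first array and swap, and -0.10 and -0.15 on those of replicate 2. The spots of an array spread around these means with an SD of 0.12, 0.11, 0.10 and 0.11, with 10, 3, 9 and 8 spots in use. The mean over replicates was -0.06 ± 0.10, and the second probe gave -0.07 ± 0.08. A difference in Ptgs2 was not detectable at this signal. The series' own table gave -0.27.

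Hpgds, the haematopoietic prostaglandin D synthase, was the only tested gene of the group called lower in the Lgr5-GFP-labelled RNA. Its signals there were 132, 97.9 and 183 over backgrounds of 55, 44 and 128, and in the CD24hi-labelled RNA they were 394, 254 and 255 over 131, 125 and 48.5. The net signal was larger in the CD24hi-labelled RNA on each of the 3 arrays. The log2 ratios were -1.01, -0.62 and -1.09, with a mean of -0.93 ± 0.10 (limma, adjusted p = 0.00316). In the Lgr5-GFP-labelled RNA it was well above background on 2 of the 3 arrays. Hpgds and Ptgs1, which supplies the substrate of Hpgds, thus had opposite signs on every array with a value, and the difference between the genes was not tested.

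Alox5 makes the first product of the leukotriene branch. Its brightest probe (chr6:116360326-116360385, minus strand) had net signals of 355, 142 and 229 in the Lgr5-GFP-labelled RNA. Those of the CD24hi-labelled RNA were 56.1, 24 and 56.9, and the probe was well above background on 1 of the 3 arrays. The ratios were 2.49, 1.75 and 1.83, with a mean of 2.14 ± 0.49 (limma, adjusted p = 0.00114), or 4.40-fold. A second kept probe that overlaps it (chr6:116360366-116360425) gave 1.87 ± 0.46 and was well above background in both populations on all 3 arrays. The third (chr6:116362506-116362565) was not kept and read 0.84 ± 0.54. All 3 probes were above 0 on each array.

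Alox5ap presents arachidonic acid to Alox5, and Ltc4s joins the product to glutathione to give the first cysteinyl leukotriene. Both were well above background in both populations on 3 of 3 arrays. Alox5ap (chr5:150099347-150099406, plus strand) read 317, 200 and 373 in the Lgr5-GFP-labelled RNA, over backgrounds of 51.5, 47 and 125, and 284, 205 and 166 in the CD24hi-labelled RNA, over 136, 127 and 52. Its ratios of 1.19, 1.08 and 1.17 lay close together, with a mean of 1.16 ± 0.05 (limma, adjusted p = 0.00166). Ltc4s (chr11:50050522-50050581, minus strand) had net signals of 260, 163 and 176 against 103, 57.5 and 77.5. Its ratios of 1.54, 1.41 and 1.20 gave a mean of 1.42 ± 0.16 (limma, adjusted p = 0.00119). All 3 genes of this branch were higher on every array with a value.

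The sizes of these ratios depended on the signal treatment more than on the replicate. The offset of 50 that was added before the logarithm draws ratios of dim spots toward 0. With the scanner software's processed signals, the log2 ratio of Ptgs1 was 5.95, that of Dclk1 4.62, that of Alox5 3.51, that of Trpm5 3.13, that of Ltc4s 2.43 and that of Alox5ap 1.71. Gfi1b was then at 1.52 and Hpgds at -1.83, and each of the 8 was called (limma, adjusted p from 0.000837 to 0.00306). With no background subtraction, Dclk1 was at 1.39, Ptgs1 at 1.07 and Hpgds at -0.55. Directions did not change under any of the treatments in the plot of ratios by signal treatment.

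**Figure D3:**
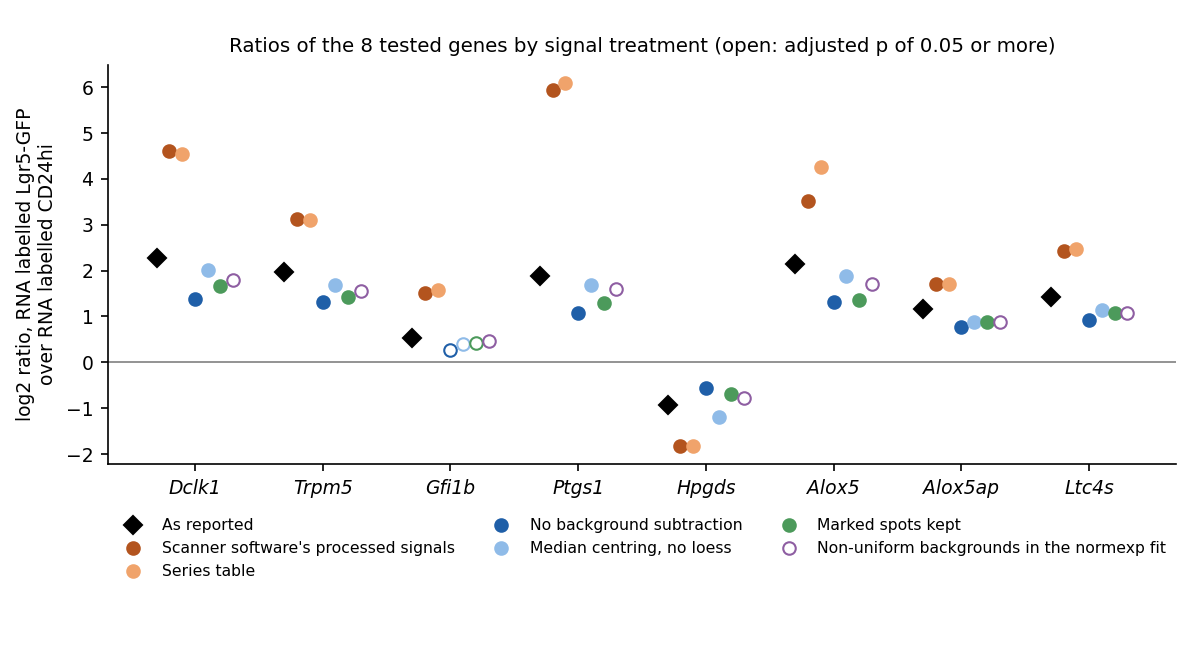
Log2 ratio (y axis) of the 8 tested genes (x axis) under 7 treatments of the signal, with open points where the adjusted p was 0.05 or more. Every point of Hpgds is below 0 and every other point above 0, and the processed signals and the series table give the largest sizes, up to 6.10 for Ptgs1.

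Other genes known from tuft cells were also mostly higher in the Lgr5-GFP-labelled RNA. Of 44 listed, 34 were tested, 26 were called higher and 1 lower, against 21.7% higher and 25.5% lower among all tested genes, with a median log2 ratio of 0.96 against -0.07 for all tested genes. The list was drawn up with earlier results of these data known, so it does not stand as independent support. With well above background required in both populations, 16 of 21 were called higher, with the first array of replicate 1 left out 3 of 8, and with the non-uniform backgrounds in the fit 0 of 34. The largest ratios were those of Cd300lf, an inhibitory lipid receptor (2.64 ± 0.37; limma, adjusted p = 0.000678), Matk, a kinase that restrains Src (2.25 ± 0.63), Pik3r5, a regulatory subunit of PI3-kinase gamma (2.23 ± 0.54), and Atp2a3, a calcium pump of the endoplasmic reticulum (2.23 ± 0.89). Several of these are also well known from blood cells. In the CD24hi-labelled RNA, Cd300lf, Matk and Pik3r5 were each well above background on 1 of 3 arrays with a value. The sizes of their ratios therefore have no firm level on that side. Atp2a3 was well above background there on all 4 arrays.

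Genes of the taste cascade and of type 2 cytokine sensing were within that list. Gng13, the G protein gamma subunit of taste cells, was called higher at 1.12 (limma, adjusted p = 0.00204), and Itpr2, an inositol trisphosphate receptor, at 0.62 (0.0257). Il4ra and Il13ra1, which together form a receptor for interleukins 4 and 13, were called higher at 1.94 and 1.08, and Il17rb, a receptor chain for interleukin 25, at 0.85. Avil, an actin-binding protein of the tuft, was higher at 1.38 and Sh2d6, an adaptor, at 1.33. In the CD24hi-labelled RNA, Avil was well above background on 1 of 3 arrays with a value and Il17rb on 2 of 3. Il25 itself and Plcb2, the phospholipase of the cascade, had no kept probe. Chat, which makes acetylcholine, read 0.08 and Tas1r3, a taste receptor subunit, 0.06, and neither passed the test. The gene called lower was Ptpn6, a phosphatase of blood cell signalling, at -0.41 ± 0.17 (limma, adjusted p = 0.0478). Its call was lost under 8 alternatives, and its other kept probe read -0.07, with replicates at 0.01 and -0.16.

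The other genes of the eicosanoid pathway were read step by step. Of 14 tested genes that release the fatty acid precursor, 8 were called higher and 0 lower by limma (also 8 and 0 at an unadjusted p under 0.05), against 21.7% and 25.5% of all tested genes, with a median of 0.59. Mgll, the monoacylglycerol lipase, stood at 1.72 ± 0.13 (limma, adjusted p = 0.000812), and the secreted phospholipases Pla2g10 and Pla2g2a at 1.60 ± 0.35 and 1.43 ± 0.34. Pla2g4a, the cytosolic phospholipase that feeds both branches in many cells, read -0.13 and did not pass the test.

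Of 6 tested prostanoid synthases and related reductases, 4 were called lower and 0 higher by limma (also 4 and 0 at an unadjusted p under 0.05), against 25.5% and 21.7% of all tested genes, with a median of -0.83. These were Fam213b, a prostamide and prostaglandin F synthase (-1.69 ± 0.08; limma, adjusted p = 0.000788), Akr1b3, an aldose reductase with prostaglandin F synthase activity (-1.06 ± 0.13), Ptges3, a prostaglandin E synthase also known as the chaperone partner p23 (-0.94 ± 0.27), and Cbr1, a carbonyl reductase (-0.72 ± 0.18). Most of them have other roles in the cell, and Hpgds shared their sign. Ptges and Ptges2, the membrane-bound prostaglandin E synthases, read 0.19 and 0.22 and did not pass the test. Ptgds, Ptgis and Tbxas1 had no kept probe, so prostaglandin D, prostacyclin and thromboxane synthesis through them was not measured.

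Beyond Ltc4s, 5 of 13 listed leukotriene and lipoxygenase genes could be tested. Mgst2, a microsomal homologue of Ltc4s that can also make leukotriene C, was called higher at 1.29 ± 0.19 (limma, adjusted p = 0.00162), and Dpep1, a dipeptidase that trims cysteinyl leukotrienes, at 1.05 ± 0.12. Mgst3 was called lower at -0.75 ± 0.23, and so was Lta4h, which makes leukotriene B, at -0.59 ± 0.01 (limma, adjusted p = 0.0122). Lta4h read -0.23 and -0.24 on the first arrays of the replicates and -0.95 and -0.92 on their dye swaps. The SD between replicates does not show this difference, and the call of Lta4h was lost under 3 alternatives. Ltc4s, Mgst2 and Dpep1 therefore had the opposite sign to Lta4h in both replicates, while Mgst3 had the sign of Lta4h. Of the 5 tested, 2 were called higher and 2 lower, against 21.7% and 25.5% of all tested genes, with a median of 0.05. The signs of these few genes did not split cleanly by branch. Differences between the genes were not tested. The 12- and 15-lipoxygenases Alox12 and Alox15 had no kept probe.

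Of 12 tested genes for breakdown and transport, 4 were called higher and 2 lower, with a median of 0.16. Slco2a1, the prostaglandin uptake carrier, was at 1.62 ± 0.14 by its brightest probe, but its other kept probe read 0.07, and the gene is uncertain. Ptgr1, a reductase that inactivates leukotriene B and prostaglandin metabolites, was lower at -1.07 ± 0.31. Hpgd, which starts prostaglandin breakdown, read 0.30 and did not pass the test (limma, adjusted p = 0.0985). Of 16 listed receptors 4 were tested. The prostaglandin E receptors Ptger3 and Ptger4 were called higher at 0.90 ± 0.06 and 0.84 ± 0.10, and the prostaglandin F receptor Ptgfr at 0.89 ± 0.04. In the CD24hi-labelled RNA, Ptger3 was well above background on 1 of 3 arrays with a value and Ptgfr on 1 of 4. Ptgfr read 1.35 and 0.38 on replicate 1's first array and swap, and 0.68 and 1.15 on those of replicate 2. With well above background required in both populations, 2 receptors were tested, with a median of 0.44. Ptgdr2, a prostaglandin D receptor, read 0.04. The cysteinyl leukotriene receptors Cysltr1 and Cysltr2 had no kept probe. Over all these lists, 17 of 41 tested genes were called higher and 8 lower, against 21.7% and 25.5% of all genes.

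**Figure D4:**
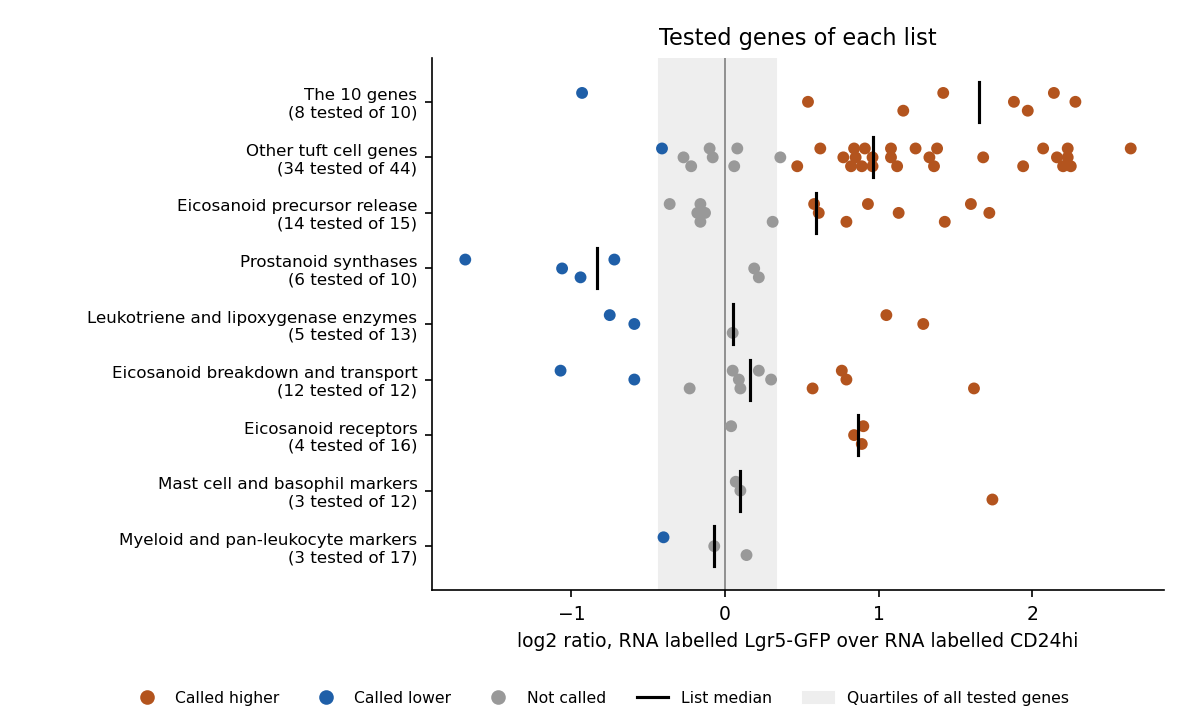
Log2 ratio (x axis) of each tested gene, by list (y axis), coloured by its call, with the list median as a black line and the span between the quartiles of all tested genes (-0.43 to 0.33) in grey. The tuft cell genes lie mostly to the right, with a median of 0.96, and the prostanoid synthases mostly to the left, with a median of -0.83.

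Since several of the 10 genes are used by blood cells, markers of those cells were read on the same arrays. Of 12 mast cell and basophil markers 3 were tested, and 1 was called. Kit, a receptor tyrosine kinase that colonic crypt secretory cells also carry, was higher at 1.74 ± 0.46 (limma, adjusted p = 0.00172), while Cma1 and Fcer1a read 0.10 and 0.07. The mast cell proteases Cpa3, Mcpt1, Mcpt2, Mcpt4, Tpsb2 and Tpsab1 and the basophil protease Mcpt8 had no kept probe. On the 3 arrays other than the dye swap of replicate 1, 2 to 4 of the 12 were well above background in the Lgr5-GFP-labelled RNA and 3 to 4 in the CD24hi-labelled RNA. The summed net signal of the list, Kit included, ran from 1990 to 2660 in the first and from 937 to 1310 in the second. Such sums, here and below, are of raw signals that were not normalized between the dyes, so they give no ratio of the populations.

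Of 17 myeloid and pan-leukocyte markers 3 were tested. Cd14 was called lower at -0.40 ± 0.14 (limma, adjusted p = 0.0494), and Fcer1g and Cd68 read 0.14 and -0.07. Ptprc, the pan-leukocyte surface protein CD45, Csf1r and Tyrobp had no kept probe. On the same 3 arrays, 1 to 6 of the 17 were well above background in the Lgr5-GFP-labelled RNA, with a summed net signal of 1570 to 2410. In the CD24hi-labelled RNA, 3 to 8 were well above background, with a summed net signal of 1550 to 3400. None of 4 tested platelet markers and 2 tested lymphocyte markers was called (limma; also 0 at an unadjusted p under 0.05; ratios from -0.31 to -0.01 and of -0.26 and -0.16), and of 8 stromal markers only Col1a2 was tested, at 0.44. On the dye swap of replicate 1 every marker of these lists was scored above background, as were 99.8% of all spots in the Lgr5-GFP-labelled RNA and 99.6% in the CD24hi-labelled RNA. The part of other cell types, enteroendocrine and goblet cells included, in the ratios of the 10 genes was not tested. In sorted populations measured in bulk, fewer cells of a type and less RNA per cell cannot be told apart.

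Promoter windows were read for what the genes share. The RefSeq table (GRCm38.p6) holds 9 windows for 8 of the 10 genes, each from 250 bases before to 50 bases after a start, and none was taken for Alox5ap and Pou2f3. The octamer ATGCAAAT, the site of POU factors such as Pou2f3, was searched on both strands together with the GC box GGGCGG and TATAAA, which do not overlap it. The octamer stood in 1 of the 9 windows, that of Hpgds, 174 bases before the start, and in 1.74% of all 32851 windows. The GC box stood in the windows of Alox5, Gfi1b and Ptgs2 and in 35.7% of all windows, and TATAAA in none of the 9 and in 13.6% of all. The upstream part of the Hpgds window (chr6:65144731-65144980, minus strand) and that of Alox5 (chr6:116461179-116461428, minus strand) are shown as examples of a tested gene with a negative ratio and one with a positive ratio, with the octamer or the GC box in capitals. These positions are in GRCm38.p6, not in the build of the probes.
Hpgds: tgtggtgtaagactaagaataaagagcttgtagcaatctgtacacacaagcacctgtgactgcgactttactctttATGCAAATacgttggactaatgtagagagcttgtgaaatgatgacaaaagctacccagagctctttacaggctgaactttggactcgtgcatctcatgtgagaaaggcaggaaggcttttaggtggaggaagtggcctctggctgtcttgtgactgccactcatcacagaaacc
Alox5: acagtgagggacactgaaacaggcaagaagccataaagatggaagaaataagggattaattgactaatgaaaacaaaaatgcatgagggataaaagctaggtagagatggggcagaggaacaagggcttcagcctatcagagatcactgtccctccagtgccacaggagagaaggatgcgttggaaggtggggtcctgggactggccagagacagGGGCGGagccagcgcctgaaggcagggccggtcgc
A match of letters is a description, and windows without one say only that these letters are not there.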

How the data were processed

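Sorted cell RNA was measured on 4 Agilent 2-colour arrays, read with Feature Extraction 10.5.1.1 per the file headers. Deposited intensity values gave each spot's mean signal and median local background, not normalized. The deposited log10 ratio is red over green of the software's processed signals, per the file headers. The series table held the authors' log2 ratio, red over green per array, with a normalization not given in the sources used here (column medians from -0.01 to 0.03, slope on the log10 ratio 2.91 to 3.30).

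Background was corrected with normexp (offset 50, 77 spots with non-uniform local background left out first), followed by loess within arrays, in limma 3.58.1 (R 4.3.3). Marked spots were left out. Swaps were turned, each array and its swap averaged, and the 2 replicate ratios tested against 0 (two-sided, 1 residual degree of freedom). Kept probes had to be well above background in 1 population or both on every array, and a gene is shown by its brightest kept probe. Names were updated through RefSeq for 27041 of 43379 gene spots. The fit was tested on simulated data with the same signal levels and local backgrounds on every array and no background marked as non-uniform. That test therefore could not cover the non-uniform backgrounds or the bright signals of the dye swap of replicate 1. Named genes are all 10, up to 5 called per direction and pathway list, and up to 3 per cell type list. One list gene that this rule names is not reported here. Some further list genes were added after their values were seen. Members, lists and settings were chosen with earlier results of these data known. Alternatives covered background, normalization, marked spots, filters, probe choice, dye term, blocks and left-out arrays. The number of arrays limits the precision.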

Additional observations from a re-analysis of the deposited data

Results flagged for a closer look

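The dye swap of replicate 1 stood far from the other 3 arrays in 3 measures, by the gap to its nearest neighbour as a share of the range. Its median signal was 4380 in the Lgr5-GFP-labelled RNA and 1360 in the CD24hi-labelled RNA, and 75.3% of its spots were marked as outliers. Of 35 gene ratios with a value on all 4 arrays, those from the group taken with marked spots kept, 4 passed the same limit, all through that array. Chance takes about 5% of separate groups past it, but these ratios share the same 4 arrays and are not separate groups. Akr1b3 read -1.29 there, Kit 0.86 and Scnn1a, a sodium channel subunit of absorptive colonocytes, 1.46. With marked spots kept, Alox5ap read 0.11 there, against 1.08 to 1.19 on the other arrays.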

How the results depend on the processing

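Of 140 values of the 10 genes under alternatives, 0 changed sign among called values, 11 lost the call, 8 of them with the non-uniform backgrounds kept in the fit and the other 3 for Gfi1b alone, 124 kept direction and call or moved by less than the spread, and 5 with no test moved further (4 of Ptgs2 and Pou2f3, and Alox5 without replicate 1). Keeping the non-uniform backgrounds gave 0 calls for the 10 genes in each direction, for all genes and for the tuft cell and eicosanoid lists in each direction. Requiring signal above background in both populations left 0 of the group lower (Hpgds was not tested there) and 16 tuft cell genes higher. With marked spots kept, 3731 genes, 10 eicosanoid genes higher and 0 tuft cell genes lower were called. With the first array of replicate 1 left out, 981 of 6031 genes were called, with 3 tuft cell genes higher and 0 lower and 4 eicosanoid genes higher and 2 lower, and none of the 10 genes could be tested. The single lower tuft cell gene was also lost (0) with the mean over probes, with a dye term, and without the first array or the dye swap of replicate 2, and became 2 with median centring. Median centring moved the median of all genes from -0.07 to -0.25 and the split of calls from 3205 higher and 3780 lower to 2219 and 5425. Slco2a1 turned to -0.05 with marked spots kept (limma, adjusted p = 0.879) and to -0.29 without replicate 1, where its other probe, which reads 0.07 over both replicates, was the brightest. Without 1 of the replicates there is no test, and Dclk1 read 2.01 to 2.54, Ptgs1 1.30 to 2.47, Alox5 1.55 to 2.49 (2.14 with both), Hpgds -1.01 to -0.86 and Slco2a1 -0.29 to 1.72. The 1.55 of Alox5 without replicate 1 is that of its other kept probe, and the probe shown elsewhere gave 1.79 in replicate 2. The other causes were not tested. A dye term with replicate as a random block could not be fitted and was not run, and a dye term with no block was chosen after seeing the data. Each ratio already pairs both populations on 1 array. With replicate as a random block over the 4 arrays, 8220 genes and the same 7 higher and 1 lower of the group were called. The correlation within a replicate was estimated at -0.0424. That fit therefore counted an array and its dye swap almost as separate samples, and its calls do not stand as added replication. Dim signal limits Ptgs2 and Pou2f3.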
